A study of Drosophila melanogaster with 15 samples.

Results

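The cytoplasmic ribosomal protein genes were taken as all genes whose symbol starts with RpL or RpS and a digit, or with RpLP. The pairs RpS5a/b, RpS10a/b, RpS14a/b, RpS19a/b and RpL22/RpL22-like were left out. This gave 82 of the 16727 genes listed, of which 52 were counted with the large and 30 with the small ribosomal subunit by symbol. Of these, 78 passed edgeR's filter on low counts and were tested. OSCs, a cell line of somatic origin from the *Drosophila* ovary, were grown in medium supplemented with fly extract. They were treated for 48 h with siRNA against EGFP (control), *l(3)mbt* (L(3)mbt KD) or *lint-O* (Lint-O KD), and poly-A RNA was sequenced from 3 libraries per condition. L(3)mbt is a chromatin protein with MBT domains, and Lint-O was studied as its partner in repression of germline genes in these cells. All 9 libraries came from the same cell line, no library was from untransfected cells, and nothing in the labels says whether replicates were separate cultures, so p-values measure the spread between these libraries.

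Each cytoplasmic ribosome contains 1 copy of nearly every ribosomal protein, and the genes are therefore usually expressed together at high and similar levels. Their products reach the nucleolus, where they join the ribosomal RNA during assembly, and the finished subunits are exported. In *Drosophila*, loss of 1 copy of many of these genes gives the Minute phenotype of slow growth. Many of their promoters start transcription at a pyrimidine-rich initiator called TCT instead of the usual initiator.

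The starts of 9 members named in the results are printed to show this initiator and starts where the search did not find it. Each line is 30 bases of RefSeq Release 6 (dm6), 15 before the annotated start of the gene and 15 from it, on the strand of the gene. The capitals mark CTTT, the core of the TCT initiator, where its C lies within 5 bases of the start.
RpL28 (3L): tatgtcgggctgccatatttCTTTccttct
RpLP1 (2L): cacactgcatatcaactgctCTTTccggtt
RpL40 (2L): tcggcggcggccacactctCTTTtcccttt
RpL32 (3R): tcacaccaccagCTTTttcttttcgcttct
RpL5 (2L): tactttaagaaattgcgttgttgaatgtta
RpL36 (X): gtctggcaacgcccgcccgcctatcgataa
RpL35 (X): ttaatgacggactcggaaccggttcgatat
RpS13 (2L): tatcgctaagcatcccgttatcgatagctg
RpL24-like (3R): ctgctgactgccgatacattttcatatttc

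CTTT was found at this position in 27 of the 78 members tested (34.6%), against 5.90% of the 8338 protein-coding genes tested whose start was matched. It occurred in 18 of 50 large subunit genes and 9 of 28 small subunit genes. The other motifs were searched from 250 bases before to 50 after the start. TATCGATA, the DRE bound by Dref, was on either strand in 25 members (32.1%, against 14.3% of protein-coding genes). The core of Motif 1, GGTCACAC, was on either strand in 13 members (16.7%, against 12.2%), and the E-box CACGTG in 8 (10.3%, against 4.49%). All 8 genes with an E-box were counted with the large subunit by symbol. RpL24-like and RpLP0-like, relatives of ribosomal proteins that act elsewhere, are among them. TATAAA upstream of the start was seen in 1 member (1.28%, against 4.04%). The starts are those of the annotation, not mapped in these cells, and a match is not a shown binding site. The proteins had a median length of 153.5 residues, with lysine and arginine making up a median of 22.6% of residues, against 470 residues and 11.3% over protein-coding genes. The 82 genes were spread over all major chromosome arms, with 19 on 2L, 20 on 2R, 14 on 3L, 20 on 3R, 8 on X and 1, RpS3A, on chromosome 4.

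The targeted genes were lower in their own knockdown. *l(3)mbt* fell from a mean of 134.4 to 74.8 CPM (counts relative to the TMM-scaled library total) in L(3)mbt KD, and *lint-O*, listed as CG2662, from 21.3 to 3.59 CPM after Lint-O KD. Reads counted on genes ranged from 19139572 to 32274601 per library, so that 3 counts, taken as the smallest detectable amount, were 0.0958 to 0.158 CPM, which covers counting error only. The reads assigned to no feature made up 2.76% to 8.45% of reads in control, with replicate 3 the lowest, 2.93% to 4.14% after L(3)mbt KD, and 4.43% to 7.38% after Lint-O KD. Of 5 markers of ovarian somatic cells (*tj*, *zfh1*, *fs(1)Yb*, *Fas3*, *piwi*), all were detected, and their summed level was 2321 to 2520 CPM in control, 2522 to 2566 CPM after L(3)mbt KD and 2443 to 2575 CPM after Lint-O KD. The largest part was *piwi*, with a mean of 1447 CPM in control. *Fas3* rose from a mean of 17.5 to 32.3 CPM after L(3)mbt KD (edgeR adjusted p = 6.93e-09). At an FDR of 0.01 the other 4 were not called after L(3)mbt KD, nor any of the 5 after Lint-O KD. Of 5 germline markers (*vas*, *nos*, *osk*, *bam*, *bgcn*), all but *osk* rose in each knockdown, and their sum was 16.2 to 17.3 CPM in control, 420.1 to 480.2 CPM after L(3)mbt KD and 214.2 to 221.2 CPM after Lint-O KD.

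The members took a large part of the reads in every library. Their reads summed to 18.5%, 17.7% and 19.0% of all reads counted on genes in control replicates 1 to 3. After L(3)mbt KD the share was 16.8%, 16.5% and 17.8%. After Lint-O KD it was 18.1%, 17.4% and 18.1%. L(3)mbt KD replicates 1 and 2 thus lay below every control library, whereas L(3)mbt KD replicate 3 lay just above control replicate 2. The Lint-O KD libraries overlapped with control. The mean share of the large subunit was 11.8% ± 0.436 (SD, n = 3) in control and 10.8% ± 0.451 after L(3)mbt KD, and that of the small subunit 6.63% ± 0.241 and 6.25% ± 0.209. With all reads listed as the total, including those on no gene, the share of the members was 16.0% to 18.2% for control and 15.7% to 16.8% after L(3)mbt KD, and the groups overlapped more. In an exact permutation test of 3 libraries against 3, the smallest possible two-sided p is 0.1, so no p is given for these shares. These are shares of reads from bulk RNA, so they give neither an amount of RNA per cell nor a number of cells. A share also depends on the reads of all other genes, and the cause was not tested.

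Per kilobase of exon, levels in control spanned a narrow range for most of the members. Of the 78 tested, 70 lay between 1037 and 7774 CPM per kilobase, with a median over all 78 of 2615. The highest was RpL41, which encodes a peptide of 25 residues, at 7774 ± 548.0 CPM per kilobase (SD, n = 3). It was followed by RpL14 at 6233 ± 369.2, RpL23 at 6171 ± 226.9, RpS27A at 6114 ± 333.1 and RpLP2 at 5859 ± 324.2 CPM per kilobase. Each of these 4 differed from the next of them by less than its SD, whereas RpL41 lay above RpL14 by more than the SD of either gene. The lowest were the second copies and the distant relatives. RpL34a had 380.1 ± 19.3 CPM per kilobase, RpL24-like 350.1 ± 17.9, RpLP0-like 164.5 ± 6.29, RpS15Ab 77.6 ± 6.75 and RpL37b 1.93 ± 0.723. RpL5 was also low by this measure, at 900.0 ± 51.6 CPM per kilobase, but its annotated exons sum to 3835 bases, against a median of 901 bases over the members, so its value depends on which exons are used. Relative to its mean, RpL38 varied most between control libraries after RpL37b, at 806.8 ± 160.2 CPM per kilobase, an SD of 19.9% of the mean.

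The members' levels moved together from library to library, also within a condition. Relative to the mean of the control libraries, the median member was at 100.6%, 94.7% and 104.8% in control replicates 1 to 3. It was at 87.2%, 85.2% and 94.0% in L(3)mbt KD replicates 1 to 3, and at 96.2%, 92.2% and 97.4% in Lint-O KD replicates 1 to 3. In control replicate 2, 75 of the 78 members lay below their control mean, and in control replicate 3 only 4 did. By the median member, replicate 2 was the lowest and replicate 3 the highest library in each of the 3 conditions. Replicate 3 of L(3)mbt KD was thus the library of that condition closest to control, with 42 members below the lowest control library, against 72 and 75 in replicates 1 and 2. The same library had the lowest sum of germline markers of its condition, 420.1 CPM against 480.2 and 473.5. Replicate 3 also had the lowest sum in control (16.2 CPM, against 17.3 and 16.6) and in Lint-O KD (214.2 CPM, against 221.2 and 220.3). Without L(3)mbt KD replicate 3, the median log2 fold change of the members against control was -0.24 instead of -0.17. A count of members that point the same way is therefore not a count of independent observations.

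**Figure D1:**
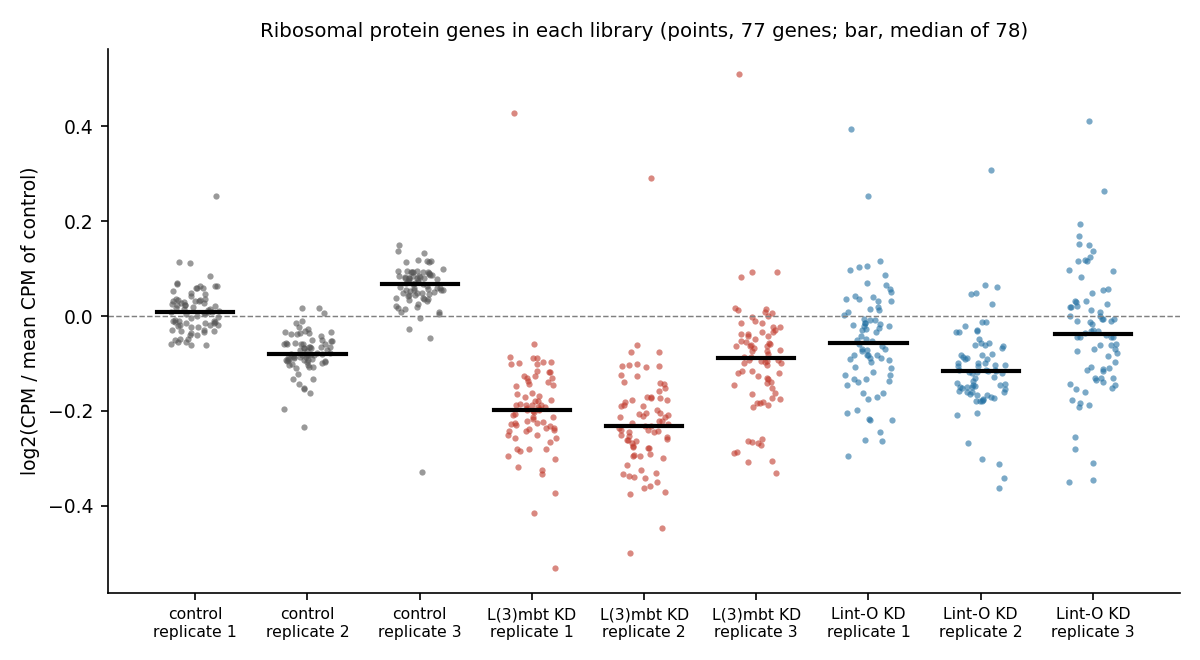
Log2 ratio of each member's CPM to its mean in the 3 control libraries (vertical axis) for the 9 libraries (horizontal axis); points are 77 genes, leaving out RpL37b, which had 4 to 27 reads per library, and bars are the median of all 78 tested. The bars of L(3)mbt KD replicates 1 and 2 lie at 87.2% and 85.2% of control, and that of replicate 3 at 94.0%, close to control replicate 2 at 94.7%.

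L(3)mbt KD was compared with control to ask how ribosomal protein mRNAs behave when L(3)mbt is depleted. The large subunit genes RpL5, RpL29, RpL35A and RpLP2 were among those that fell, and only the second copy RpS15Ab rose. Of the 78 tested, 20 were downregulated (25.6%) and 1 was upregulated at an FDR of 0.01 (edgeR quasi-likelihood test with Benjamini-Hochberg adjustment). Over all 8726 genes tested, 15.9% were downregulated and 22.6% upregulated. The median log2 fold change of the members was -0.17, a level of 89.0% of control, against -0.02 over all genes. A value below 0 was seen for 77 of 78 members, against 52.3% of all genes. All 3 knockdown libraries lay below all 3 control libraries for 42 members (53.8%), against 26.8% of all genes tested. The changes were small, and the members called lower had between 76.4% and 87.2% of their control level.

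The number of members called depended on single libraries. Without L(3)mbt KD replicate 3 it was 52 (66.7%, against 16.5% of all genes) and without control replicate 2 it was 41 (52.6%, against 15.6%). Without L(3)mbt KD replicate 1 or 2 it was 10 or 11 (12.8% and 14.1%), near the 11.6% and 13.1% of all genes. No member called in the fit of all libraries changed sign when a library was left out.

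Large subunit genes made up most of the calls. Of 50 tested, 16 were downregulated (32.0%), with a median log2 fold change of -0.18, and all 50 had a value below 0. Of 28 small subunit genes, 4 were downregulated (RpS13, RpS21, RpS24 and RpS30), or 14.3%, a share near the 15.9% of all genes, with a median of -0.16. The medians of the subunits thus differed less than their counts, and the difference between the subunits was not tested.

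**Figure D2:**
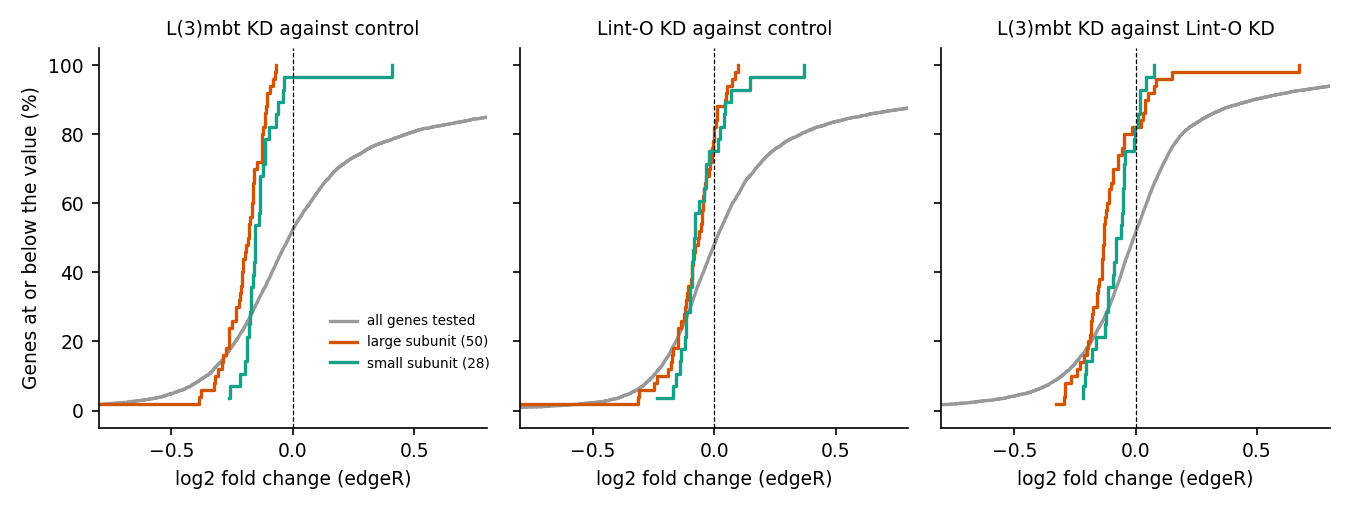
Cumulative share of genes (vertical axis, %) at or below each log2 fold change (horizontal axis, edgeR, shown from -0.8 to 0.8) in the 3 comparisons, for all 8726 genes tested and for the 50 large and 28 small subunit genes. In L(3)mbt KD against control both subunits reach 50% left of 0, at -0.18 and -0.16, and their curves are much steeper than that of all genes.

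RpL5, which carries the 5S rRNA into the large subunit together with RpL11, had the largest decrease called apart from that of RpL24-like (2L, 22532279 to 22536884, minus strand). Its levels were 3496, 3235 and 3623 CPM in control, 2664, 2440 and 2858 CPM after L(3)mbt KD, and 3431, 3176 and 3381 CPM after Lint-O KD. All 3 L(3)mbt KD libraries lay below all other libraries, and Lint-O KD overlapped with control. The log2 fold change was -0.38 ± 0.06 (SE, edgeR adjusted p = 4.24e-05) in L(3)mbt KD. In Lint-O KD it was -0.05 ± 0.06, with a 95% interval from -0.19 to 0.08. RpL11, its partner, was at 1146 to 1297 CPM after L(3)mbt KD against 1191 to 1411 CPM in control, and was not called (adjusted p = 0.0713, edgeR).

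RpL36, a large subunit protein (X, 628338 to 629483, minus strand), showed the same order of conditions as RpL5. It had 2478, 2170 and 2485 CPM in control, 1957, 1878 and 2111 CPM after L(3)mbt KD, and 2430, 2191 and 2408 CPM after Lint-O KD. The L(3)mbt KD libraries again lay below all others. The log2 fold change was -0.26 ± 0.07 (edgeR adjusted p = 0.00209) in L(3)mbt KD and -0.02 ± 0.07 in Lint-O KD.

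The stalk of the large subunit recruits elongation factors and is built of RpLP0, RpLP1 and RpLP2 on a base with RpL12. The acidic proteins of its tip fell. RpLP2 had 3708, 3325 and 3584 CPM in control and 2811, 2816 and 2948 CPM after L(3)mbt KD (log2 fold change -0.31 ± 0.06, edgeR adjusted p = 0.000348). RpLP1 (2L, 419952 to 420864, on the plus strand) had 3158, 2991 and 3332 CPM in control and 2577, 2479 and 2786 CPM after L(3)mbt KD, with -0.27 ± 0.06 (adjusted p = 0.000600, edgeR). In both genes the knockdown and control libraries did not overlap. RpLP0 and RpL12 were not called, with log2 fold changes of -0.08 ± 0.05 and -0.18 ± 0.06.

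Other large subunit genes were also among those that fell most, namely RpL29, RpL35A and RpL28. RpL29 went from 1121 to 1246 CPM in control to 922 to 982 CPM after L(3)mbt KD, and RpL35A from 1447 to 1601 CPM to 1190 to 1283 CPM. Their log2 fold changes were -0.33 ± 0.06 and -0.32 ± 0.06 (edgeR adjusted p = 7.90e-05 and 8.62e-05). RpL28 had -0.29 ± 0.06 (adjusted p = 0.000234, edgeR). In each of the 3 genes, every L(3)mbt KD library lay below every control library.

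Both ribosomal proteins that are made as fusions to ubiquitin were lower without overlap, but only RpL40 was called. RpL40 had 1680, 1598 and 1888 CPM in control and 1462, 1400 and 1536 CPM after L(3)mbt KD (log2 fold change -0.23 ± 0.06, edgeR adjusted p = 0.00433). RpS27A had 3394 to 3761 CPM in control and 3282 to 3368 CPM after L(3)mbt KD (-0.12 ± 0.06, adjusted p = 0.0870). At the decoding centre, RpS30 fell (-0.20 ± 0.06, edgeR adjusted p = 0.00600) and RpS23 had -0.12 ± 0.06. The calls of RpL40 and RpS30 were each lost in 6 of 21 alternatives. Of the 3 proteins at the entry of the mRNA channel, RpS2, RpS3 and RpS9, none was called, and 1 had an unadjusted p under 0.05 in edgeR. Around the exit of the nascent peptide, RpL35 was called among 7 genes, the others being RpL17, RpL19, RpL23A, RpL26, RpL31 and RpL39.

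Several widely used members were not called in L(3)mbt KD. RpL32, a common reference gene for RT-qPCR, had 2554, 2412 and 2801 CPM in control, 2245, 2199 and 2488 CPM after L(3)mbt KD, and 2436, 2491 and 2647 CPM after Lint-O KD. Its log2 fold change was -0.16 ± 0.07 (edgeR adjusted p = 0.0404), with the groups overlapping. RpL9 had -0.17 ± 0.06 (adjusted p = 0.0259), RpS3 -0.16 ± 0.06 (adjusted p = 0.0335) and RpL3 -0.11 ± 0.07 (adjusted p = 0.186, edgeR). RpL32 and RpS3 were each called lower in 7 of 21 alternatives, RpL9 in 6 and RpL3 in 0. The alternatives include the FDR of 0.05. RpS6, the substrate of S6 kinase, had -0.06 ± 0.06, and RpS12, which senses Minute cells in cell competition, -0.03 ± 0.06 and a sign that changed with the scaling. RpL38 had a larger value of -0.29 but also an SE of 0.18, since its control libraries ranged from 650.6 to 974.7 CPM. RpL41 was called with -0.20 ± 0.06, just under the threshold at an adjusted p of 0.00953, and its call was lost in 12 of 21 alternatives.

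**Figure D3:**
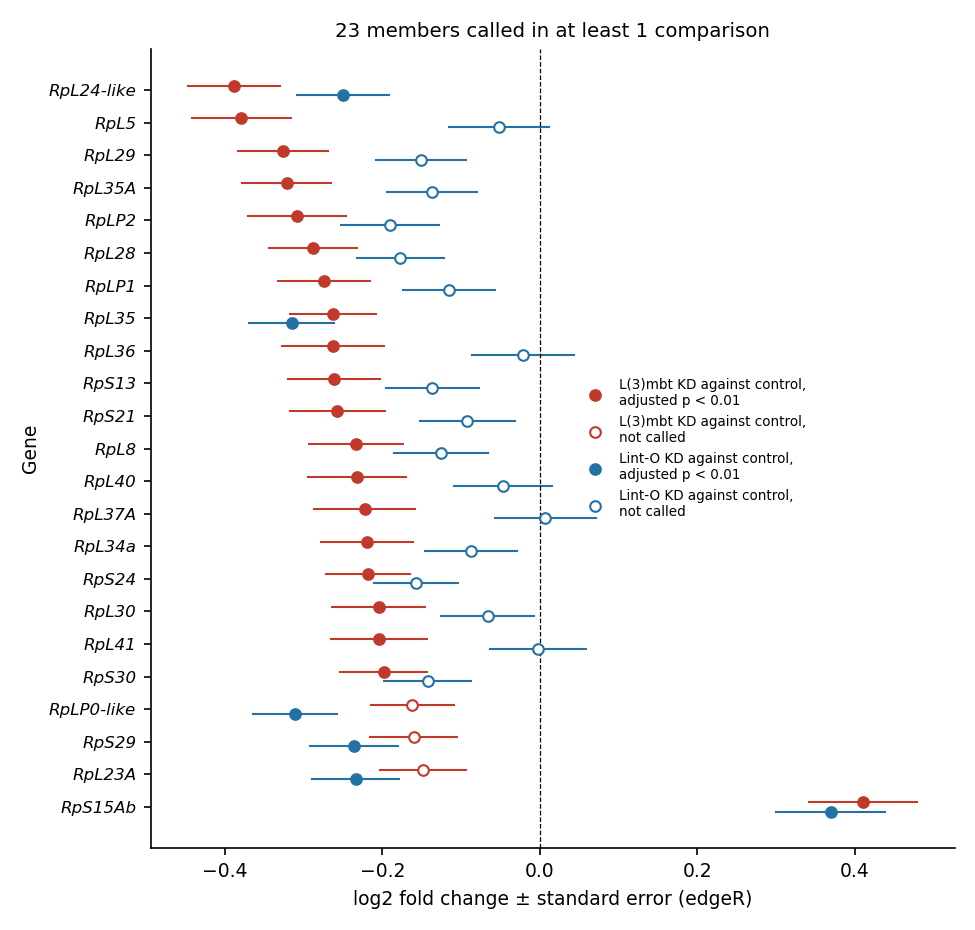
Log2 fold change ± SE (horizontal axis, edgeR, 3 libraries per condition) of 23 members called in at least 1 comparison (vertical axis), in L(3)mbt KD (red) and Lint-O KD (blue) against the shared control libraries; filled points have an adjusted p under 0.01. RpL5 and RpL36 lie left of 0 in L(3)mbt KD and close to 0 in Lint-O KD, RpLP0-like is called lower in Lint-O KD, and RpS15Ab is the gene called higher, in both.

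Lint-O KD was compared with control in the same fit. Of 78 members, 5 were downregulated (6.41%) and 1 was upregulated, against 7.58% and 16.8% of all genes tested, so the share called lower was close to that of all genes in this fit. With DESeq2, 12 of 78 members (15.4%) were called lower, against 9.36% of all genes, and with no filter on low counts 11 of 81 (13.6%), against 7.71%. The median log2 fold change was -0.08, a level of 94.8% of control, against 0.01 over all genes. All 3 libraries lay below all control libraries for 20 members (25.6%), against 20.5% of all genes. The members called lower were RpL35, RpLP0-like, RpL24-like, RpS29 and RpL23A. Without control replicate 2 there were 10 (12.8%, against 6.48% of all genes), and without Lint-O KD replicate 2 there were 3 (3.85%, against 4.45%). Both comparisons use the same 3 control libraries, so their values are not independent.

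RpL35, a protein at the rim of the exit tunnel (X, 5672401 to 5673547, plus strand), was, besides RpL24-like, the only member called lower in both knockdowns. It had 2362, 2319 and 2563 CPM in control, 2019, 2040 and 1978 CPM after L(3)mbt KD, and 1967, 1959 and 1895 CPM after Lint-O KD. Every knockdown library lay below every control library. The log2 fold change was -0.26 ± 0.06 in L(3)mbt KD and -0.32 ± 0.06 in Lint-O KD (edgeR adjusted p = 0.000460 and 0.000112).

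RpS29, a small zinc-binding protein of the small subunit, and RpL23A, at the rim of the exit tunnel, were called in Lint-O KD and not in L(3)mbt KD. RpS29 had 2622, 2673 and 2635 CPM in control, 2387, 2350 and 2361 CPM after L(3)mbt KD, and 2363, 2289 and 2080 CPM after Lint-O KD (-0.24 ± 0.06 in Lint-O KD, edgeR adjusted p = 0.00239). RpL23A had 2994 to 3138 CPM in control and 2538 to 2704 CPM after Lint-O KD (-0.23 ± 0.06, adjusted p = 0.00232). Neither differed between the knockdowns by the test of that difference (adjusted p = 0.347 and 0.279, edgeR). RpL23A shares 421 exon bases with the snoRNA host gene Uhg7 on the same strand, so its count depends on how shared reads were assigned.

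Some members are relatives of ribosomal proteins that act elsewhere. RpL24-like, RpL7-like and RpLP0-like correspond to the yeast assembly factors Rlp24, Rlp7 and Mrt4, which hold the place of ribosomal proteins in the maturing large subunit. Their proteins were only 27.8%, 32.7% and 18.1% identical to RpL24, RpL7 and RpLP0. RpL24-like (3R, 11430740 to 11431582, minus strand) had 276.2, 254.9 and 280.8 CPM in control, 203.0, 198.7 and 218.6 CPM after L(3)mbt KD, and 232.5, 213.6 and 236.8 CPM after Lint-O KD. No knockdown library overlapped with control, and the log2 fold changes were -0.39 ± 0.06 and -0.25 ± 0.06 (edgeR adjusted p = 1.15e-05 and 0.00213). RpLP0-like had 149.7, 156.6 and 161.6 CPM in control, 137.1, 137.6 and 143.6 CPM after L(3)mbt KD, and 130.0, 121.3 and 125.8 CPM after Lint-O KD. It was called in Lint-O KD (-0.31 ± 0.05, adjusted p = 0.000110) but not in L(3)mbt KD (-0.16 ± 0.05, adjusted p = 0.0174, edgeR), and the difference between the knockdowns was not called (adjusted p = 0.0485). RpL7-like had 2 reads in control replicate 1 and none in the other libraries, and was not tested.

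**Figure D4:**
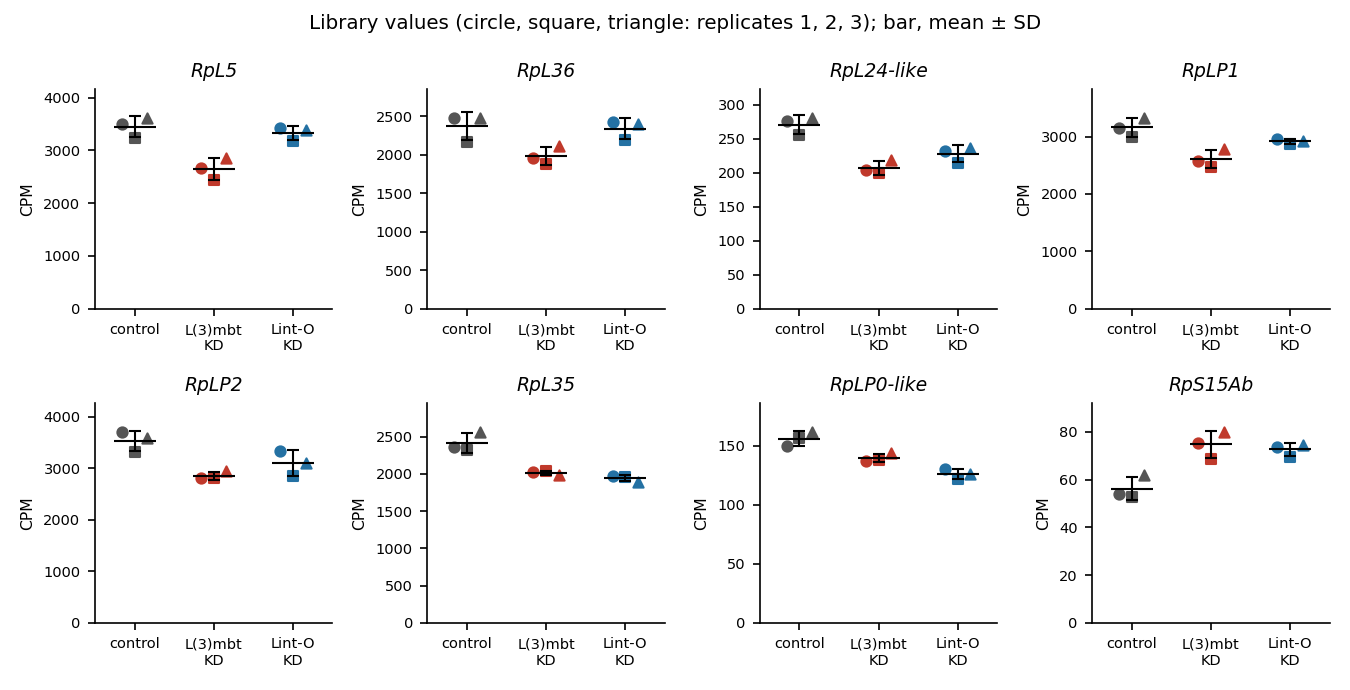
CPM of 8 members (vertical axes, from 0) in the 3 control, 3 L(3)mbt KD and 3 Lint-O KD libraries (horizontal axes); symbols are replicates 1 to 3 and bars the mean ± SD. RpL5 at 2440 to 2858 CPM and RpL36 are lower in L(3)mbt KD alone, RpL35 and RpL24-like are lower in both knockdowns, and RpS15Ab is higher in both.

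Pairs of near copies remained under the rule, and in each 1 copy gave most of the reads. RpS15Ab was the only member that was upregulated. It had 53.9, 52.9 and 61.8 CPM in control, 75.5, 68.7 and 80.0 CPM after L(3)mbt KD, and 73.9, 69.6 and 74.7 CPM after Lint-O KD. All 6 knockdown libraries lay above all control libraries, with log2 fold changes of 0.41 ± 0.07 and 0.37 ± 0.07 (edgeR adjusted p = 4.44e-05 and 0.000275). Its coding sequence is 98.2% identical to that of RpS15Aa, with a shared run of 132 bases, and RpS15Aa had 2553 to 2863 CPM in control. The counts of the copies are therefore uncertain, since reads from RpS15Aa can be assigned to RpS15Ab. RpS15Aa itself was not called, with -0.16 ± 0.06 and -0.04 ± 0.06. Of the reads on the pair, RpS15Ab took 1.90%, 2.03% and 2.11% in control, 3.01%, 2.82% and 3.03% after L(3)mbt KD, and 2.63%, 2.64% and 2.73% after Lint-O KD. For control replicate 1 the 95% Wilson interval was 1.80% to 2.01%, which covers counting error only.

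Other pairs behaved differently. RpL34a took 9.60% to 10.4% of the reads on RpL34a and RpL34b over all 9 libraries, and its decrease in L(3)mbt KD (-0.22 ± 0.06, edgeR adjusted p = 0.00383), whose call was lost in 5 of 21 alternatives, went with a value of -0.21 ± 0.07 for RpL34b (adjusted p = 0.0105). RpL37b had 24, 10 and 27 reads in control, 8, 4 and 19 after L(3)mbt KD, and 4, 4 and 8 after Lint-O KD. All 3 Lint-O KD libraries lay below all control libraries, but it was not called (-1.72 ± 0.51, adjusted p = 0.0106, edgeR). RpL37a had -0.05 ± 0.06 there. RpL10Aa had no read in any library, so that a level of up to 0.0958 CPM is allowed even in the deepest. RpS28a had 0 reads in the control libraries and 1, 1, 3 and 1 in L(3)mbt KD replicates 2 and 3 and Lint-O KD replicates 1 and 2. RpS28-like had 3 reads in Lint-O KD replicate 1 alone. Together with RpL7-like these are the 4 members that were not tested.

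L(3)mbt KD was then compared with Lint-O KD directly. Of 78 members, 2 were lower in L(3)mbt KD (2.56%), RpL5 and RpL36, and none was higher, against 6.83% and 9.24% of all genes tested. This order turned with no filter on low counts, where 15 of 81 members (18.5%) were lower, against 6.40% of all genes. It also turned at an FDR of 0.05 (20.5%, against 11.9%) and with the replicate block (29.5%, against 7.44%). At an unadjusted p under 0.05, 30 members were lower and 1 was higher in edgeR, against 1591 and 1696 of the 8726 genes tested. DESeq2 called 5 members lower (6.41%, against 6.66% of all genes) and 0 higher at its adjusted p. The log2 difference was -0.33 ± 0.06 for RpL5 (edgeR adjusted p = 0.000660) and -0.24 ± 0.07 for RpL36 (adjusted p = 0.00896). The median log2 difference of the members was -0.11, a level of 92.4%, against -0.01 over all genes. All 3 L(3)mbt KD libraries lay below all Lint-O KD libraries for 23 members (29.5%), against 20.4% of all genes. Without L(3)mbt KD replicate 3 the number called lower was 12 (15.4%, against 5.63% of all genes). Leaving out L(3)mbt KD replicate 1 or 2, or Lint-O KD replicate 1 or 3, gave 1 each (1.28%, against 3.86% to 5.61%). The call of RpL36 was lost in 10 of 21 alternatives, while that of RpL5 held in all 21.

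The members with and without a motif were described side by side for L(3)mbt KD, with no test. Among the 27 members with CTTT at the start, 7 were downregulated (25.9%), with a median log2 fold change of -0.18, and among the 51 without it 13 (25.5%), with a median of -0.17. With the DRE, 9 of 25 were downregulated (36.0%, median -0.19), and without it 11 of 53 (20.8%, median -0.17). With the core of Motif 1, 3 of 13 were downregulated (median -0.17), and without it 17 of 65 (median -0.17). With an E-box, 2 of 8 were downregulated (median -0.17), and without it 18 of 70 (median -0.17). The medians were thus close for each motif, while the share called was higher with the DRE than without it. Over the 78 members, the log2 fold change had a Spearman rho of 0.28 with exon length and 0.34 with the level, against 0.00 and -0.29 over all genes tested. The genes share their libraries, so this is a description. After a correction of each library for exon length, 13 members were called lower (16.7%, against 14.9% of all genes). Their median was -0.13, against 0.01 over all genes.

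Other genes of ribosome production were taken from fixed lists. Of 17 ribosome biogenesis genes, 14 were downregulated in L(3)mbt KD (82.4%, median log2 fold change -0.26) and 13 in Lint-O KD (76.5%, median -0.27). Over all genes tested these shares were 15.9% and 7.58%. None of the 17 differed between the knockdowns at the threshold, with 1 higher and 0 lower at an unadjusted p under 0.05 in edgeR. Nopp140, a nucleolar chaperone of snoRNPs, had 323.0 to 334.8 CPM in control, 235.3 to 258.1 CPM after L(3)mbt KD and 236.2 to 244.6 CPM after Lint-O KD (-0.41 ± 0.05 and -0.44 ± 0.05, edgeR adjusted p = 1.10e-06 and 6.82e-07). RIOK1, a kinase of small subunit maturation, had -0.52 ± 0.06 and -0.43 ± 0.06. The share of these genes called lower in Lint-O KD was thus 76.5%, where it was 6.41% for the members. The 5 members called lower there include RpL24-like and RpLP0-like, relatives of ribosomal proteins that act elsewhere. The comparison of the lists was not tested.

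Of 6 genes of RNA polymerase I and its initiation factors, 3 fell and 1 rose in L(3)mbt KD. RpI135, its second subunit, went from 85.8 to 98.9 CPM to 63.8 to 65.2 CPM (-0.50 ± 0.06, edgeR adjusted p = 4.07e-07), and *udd* rose (0.29 ± 0.07, adjusted p = 0.000934). In Lint-O KD 1 fell (16.7%, against 7.58% of all genes tested), again RpI135, and 1 rose, again *udd*. Of 72 mitochondrial ribosomal protein genes tested, 27 were downregulated in L(3)mbt KD (37.5%, median -0.20) and 16 in Lint-O KD (22.2%). Over all genes tested these shares were 15.9% and 7.58%, and over the members 25.6% and 6.41%. None of the 72 was upregulated in either knockdown, with 2 and 1 higher at an unadjusted p under 0.05 in edgeR.

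Among 14 regulators of ribosomal protein genes and of growth, 5 fell (35.7%, against 15.9% of all genes tested) and 1 rose in L(3)mbt KD. In Lint-O KD 3 of the regulators fell (21.4%, against 7.58%). *Thor*, the translational repressor 4E-BP, had 292.8, 279.8 and 302.0 CPM in control, 194.9, 214.1 and 182.7 CPM after L(3)mbt KD, and 251.4, 258.9 and 255.1 CPM after Lint-O KD. It was lower in L(3)mbt KD than in both other conditions without overlap (-0.56 ± 0.06 against control and -0.37 ± 0.06 against Lint-O KD, edgeR adjusted p = 5.42e-08 and 7.23e-05). *Tor*, the growth kinase, fell in L(3)mbt KD (-0.31 ± 0.07, adjusted p = 0.000375) and had 0.04 ± 0.06 in Lint-O KD. *larp*, which binds mRNAs of ribosomal proteins, was lower in L(3)mbt KD than in Lint-O KD (-0.36 ± 0.08, adjusted p = 0.00175, edgeR). Against control *larp* was called in neither, with -0.12 ± 0.08 in L(3)mbt KD and 0.24 ± 0.08 in Lint-O KD (edgeR adjusted p = 0.212 and 0.0177). The L(3)mbt KD libraries overlapped with control, and all Lint-O KD libraries lay above it. *Dref* rose in L(3)mbt KD (0.20 ± 0.05, adjusted p = 0.00378). *Max*, *S6k* and CG6272 (Irbp18), a bZIP partner of Xrp1, were called lower in both knockdowns, whereas Myc, listed as *dm*, was not called. Its libraries ranged from 210.2 to 306.9 CPM in control alone.

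**Figure D5:**
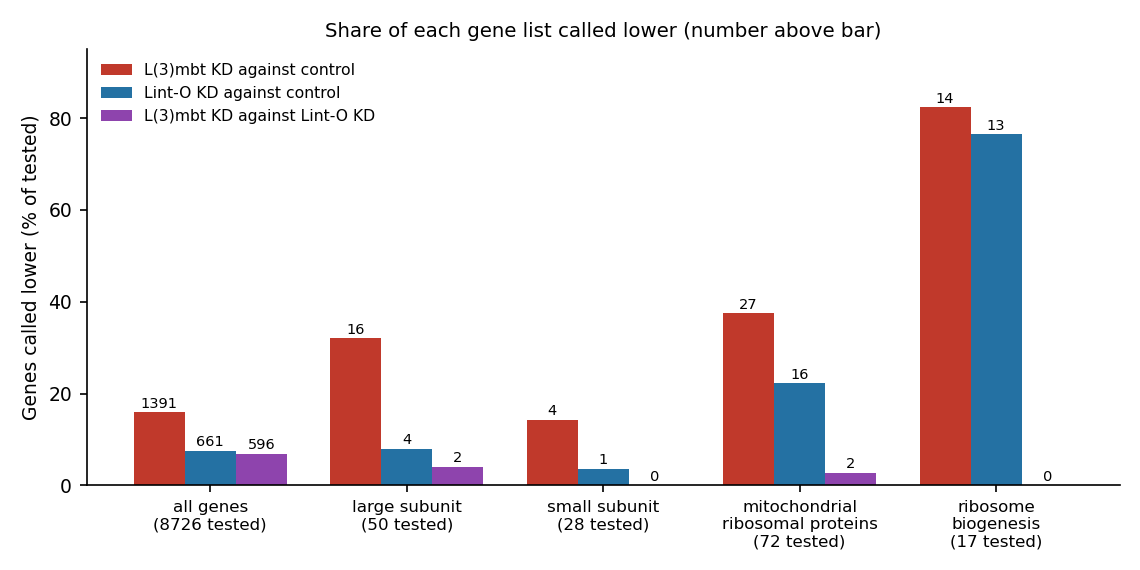
Share of the genes tested that were called lower (vertical axis, %, edgeR adjusted p under 0.01) in each of 5 gene lists (horizontal axis) and 3 comparisons; numbers above bars count the genes called. Ribosome biogenesis genes were called lower in both knockdowns (14 and 13 of 17), large subunit genes mainly in L(3)mbt KD (16 of 50).

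Of the 10 genes in the pairs left out of the rule, 9 were tested. In L(3)mbt KD 3 of them rose, 1 fell (RpL22) and 5 were not called, with a median log2 fold change of -0.11. The largest rises were those of RpS5b and RpS19b. RpS5b had 82.8 to 90.7 CPM in control, 920.8 to 1026 CPM after L(3)mbt KD and 312.9 to 345.9 CPM after Lint-O KD, and RpS19b had 42.4 to 55.2, 99.2 to 116.8 and 86.3 to 91.5 CPM. With these 10 genes added, the share of reads on ribosomal protein genes was still lower in L(3)mbt KD than in control on average, at 18.1% ± 0.716 against 19.4% ± 0.726 (SD, n = 3).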

How the data were processed

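Ribosomal protein mRNAs were examined in 9 RNA-seq libraries of OSCs, 3 per condition. Per the labels and the methods of the study, the authors mapped reads to dm6 with HISAT2 after excluding those on rRNA, and the labels name HTSeq. The deposited values are counts of reads per gene without normalization. The annotation and strand setting of the counting are not given in the sources used here. Reads assigned to no feature and ambiguous reads (1.47% to 1.61%) were kept out of library totals and tests. With edgeR 4.0.16 in R 4.3.3, genes were filtered with filterByExpr, scaled by TMM and fitted over all 9 libraries with the robust quasi-likelihood model, and p-values were adjusted over 8726 genes. CPM are TMM-scaled, and standard errors are derived from the fit. Exon lengths, starts and sequences are from RefSeq Release 6, to which 16584 of 16727 genes were matched by symbol.

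In data simulated for L(3)mbt KD against control over the 8726 genes, edgeR recovered 21% of genes changed by a log2 fold change of -0.3 and 93% of those changed by 1, with 1 false call. Alternatives were DESeq2 1.42.0, other scalings, filters and thresholds, a replicate block, covariates, corrections for exon length and GC content, and each library left out. The genes named were the called members with the largest changes, the members highest and lowest per kilobase, those that were not tested, 8 members fixed by name, and called members of the role lists. RpL11, RpLP0, RpL12, RpS23, RpL34b and RpS15Aa were added as partners or copies of these, and other members are named in counts. A called member is counted but not reported here by name. Of the other genes of the pathway, some under a log2 fold change of 1 were named after their values were seen. The members, lists and rules were chosen with earlier results of these data known. The ChIP-seq was not analysed here.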

Additional observations from a re-analysis of the deposited data

How the results depend on the processing

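The median log2 fold change of the members stayed below 0 in all comparisons under every alternative run, and no called member changed sign. The number called lower in L(3)mbt KD, 20, was 13 with library totals alone (16.7%, against 10.8% of all genes). With the correction for exon length it was also 13 (16.7%, against 14.9%). It was 48 with no filter on low counts (59.3%, against 14.9%) and 44 at an FDR of 0.05 (56.4%, against 23.6%). Leaving out 1 library gave 10 (12.8%, against 11.6%) to 52 (66.7%, against 16.5%). The lower count in Lint-O KD, 5, was 12 with DESeq2 and 11 with no filter. At an FDR of 0.05 it was 15 (19.2%, against 13.8% of all genes). It was 8 with the share of reads outside genes as a covariate (10.3%, against 9.05%). With the GC correction (added after seeing the data) it was 8 (10.3%, against 9.35%). With 1 library left out it was 3 (3.85%, against 4.45%) to 10 (12.8%, against 6.48%). The lower count between the knockdowns, 2, was 1 with library totals, DESeq2 size factors or at least 10 counts in every library. It was also 1 with no robust moderation (added after seeing the data). With DESeq2 it was 5 (6.41%, against 6.66% of all genes), and with no filter 15 (18.5%, against 6.40%). At an FDR of 0.05 it was 16 (20.5%, against 11.9%). It was 4 with the covariate (5.13%, against 5.44%) and 4 with the GC correction (5.13%, against 6.62%). With 1 library left out it was 1 to 12. The higher count there, 0, was 1 at an FDR of 0.05 and 1 with the GC correction. The cause was not tested.

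Over the genes tested, deviations of same-numbered libraries correlated at -0.20 to -0.12 for L(3)mbt KD with control. For Lint-O KD with control they correlated at 0.06 to 0.15, and between the knockdowns at 0.00 to 0.05. For the median member, replicate 2 was the lowest and replicate 3 the highest library of each condition. The labels do not say what same-numbered libraries share. With the replicate block, 54, 17 and 23 members were called lower in L(3)mbt KD, in Lint-O KD and between the knockdowns (69.2%, 21.8% and 29.5%, against 18.0%, 8.84% and 7.44% of all genes), so the share between the knockdowns was then above that of all genes. With the block and the exon length correction these were 37, 13 and 18 (47.4%, 16.7% and 23.1%, against 17.1%, 10.6% and 6.82%). Under that setting 2 were higher in Lint-O KD and 1 between the knockdowns. With the block and the GC correction 44, 19 and 16 were lower (56.4%, 24.4% and 20.5%, against 15.4%, 8.97% and 6.17%). RpS12 in L(3)mbt KD was at 0.020 with library totals, 0.027 with the exon length correction and 0.025 with that correction and the block, and RpL38 at 0.021 with the covariate, in place of values below 0. Depth limits RpL37b and the 4 members that were not tested. For the others, the spread between replicates exceeds counting error (chi-square of 4.94 to 21.3 per degree of freedom between pairs of replicates, over genes with at least 20 reads in the pair).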
